A study of Arabidopsis thaliana with 6 samples.

Results

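The genes described here encode heat shock proteins, their DnaJ partners and the transcription factors that switch them on. They are the 146 genes, of 19955 in the authors' deposited table, whose description contains heat shock, HSP20-like or DnaJ. By the wording of the description they fell into 92 DnaJ proteins, 26 small heat shock proteins, 11 HSP70 proteins, 4 heat shock factors, 2 HSP101 (ClpB) proteins, 2 HSP90 proteins and a remainder of 9. Another 4903 genes carry an empty or blanked description and could not be chosen in this way, so other genes of these families may lie outside the set.

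RNA was sequenced from seedlings of Arabidopsis thaliana, accession Col-0, collected at 7 days without treatment, at 22 degrees in long days. The mir163 mutant, labelled as a mutant of the gene of the microRNA miR163, had 3 libraries, and the wild type (WT), its control, also had 3. The labels do not give the allele or say whether the mutant is 1 line. The table gives each gene 1 FPKM value per genotype (fragments counted per kilobase of transcript, relative to all fragments mapped). Every level below is therefore the authors' combined value, and no spread between replicates can be given. The table also gives an unadjusted p-value, which was adjusted here by Benjamini-Hochberg over the 19264 genes with an FPKM of at least 1 in a genotype.

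Heat shock proteins are chaperones that keep other proteins folded. HSP70 binds unfolded stretches of client proteins, DnaJ proteins bring clients to HSP70 and start its ATPase cycle, and HSP90 finishes the folding of signalling proteins. Small heat shock proteins hold unfolding clients without ATP, and HSP101 pulls proteins out of aggregates. In plants, heat shock factors bind heat shock elements, repeats of GAA in alternating direction, in the promoters of these genes. Many of the genes are induced by warmth, and others serve unstressed cells, also in chloroplasts, where DnaJ proteins assist the photosynthetic complexes.

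Short sequences before the start codon are shown first, because copies of one of them stand in the members with the largest differences upward in mir163. The 500 bases before the start codon were searched, on both strands, for the heat shock element, here GAA, TTC and GAA with any 2 bases between neighbours, and for the evening element AAAATATCT, a motif found in many clock-controlled genes that peak at dusk. These motifs were chosen with the results known. Of the 146 members, 3 carry the evening element in a pair of copies, and they are these members. In each line below 30 bases are given 5′ to 3′ on the strand of the gene, from the RefSeq assembly TAIR10.1, with the evening element, or its reverse complement, in capitals. In the annotation all of these sites lie in an exon, before the start codon.
AT1G56300, first copy, chr1:21080403-21080432, minus strand: gtaatatcatAAAATATCTtaaattgaaaa
AT1G56300, second copy, chr1:21080334-21080363, minus strand: tctcctacaaAGATATTTTtgtttcattct
DJC76, first copy, chr5:7828622-7828651, minus strand: cgtcccaaatAAAATATCTttccaagagag
DJC76, second copy, chr5:7828580-7828609, minus strand: cttcatatagAGATATTTTcaacaacttgt
ACD32.1, first copy, chr1:1969547-1969576, minus strand: tttccggaagAAAATATCTtttaatcttca
ACD32.1, second copy, chr1:1969524-1969553, minus strand: atcttcaagcAGATATTTTcgaatccagcg

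The heat shock element is shown for members on both sides of the comparison, with the GAA units, or their reverse complement TTC, in capitals. The first 4 below had higher values in mir163 and the last 3 had lower ones.
HSFA2, chr2:11135528-11135557, plus strand: ttagtaacGAAgtTTCtgGAAcattgtctt
HSP90.1, chr5:21352254-21352283, plus strand: aacgaaaaGAActTTCtgGAAttcgtttgc
HSP70, chr3:3993845-3993874, minus strand: ttactcgtGAAcgTTCtcGAAagctctttg
Hsp70-2, chr5:552685-552714, minus strand: taattacaGAAcaTTCtgGAAactcaagtc
AT1G53540, chr1:19980238-19980267, plus strand: caacaccaGAAacTTCttGAAagcacctga
ATHSP22.0, chr4:6370379-6370408, plus strand: aaagatatTTCaaGAAacTTCttcattctt
HSP18.2, chr5:24062388-24062417, plus strand: caacaaacGAAacTTCctGAAatgccaaga

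Setting mir163 against WT addresses how transcript levels depend on MIR163. The transcript of the mutated locus, MIR163, stood at an FPKM of 0.0726 in mir163 and 20.5 in WT, with a p of 0.180 in the authors' deposited table. The mature microRNA, with its seed in capitals, is on chromosome 1.
miR163, chr1:24884359-24884382, plus strand: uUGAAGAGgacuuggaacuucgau
No transcript of the 146 members held a site for it within 4 differences, mismatches or gaps, and the closest had 5 differences. Such sites were rare, held by 7 of the 19671 genes searched, so 0 of 146 is near the share over all genes. The known target PXMT1 had a site with 1 difference in the same search.

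Most of the chaperone genes stood within 1.25-fold of WT, though a smaller share of them than of all genes. Of the 146 members, 144 reached an FPKM of 1 in a genotype and were tested. Of these, 90 (62.5%) had a higher value in mir163, as had 51.3% of all genes tested, and 54 had a lower one, as had 48.7% of all genes tested. Within 1.25-fold of WT lay 104 members, or 72.2%, against 80.6% of all genes tested. These were 76 of 92 DnaJ genes, 10 of 24 small heat shock proteins, 6 of 11 HSP70 genes and 8 of 9 of the remainder. The others were 2 of 4 heat shock factors, 1 of 2 HSP101 genes and 1 of 2 HSP90 genes. After adjustment over all genes 0 members were called higher or lower, as were 0 of all genes tested (0%). At an unadjusted p under 0.05 in the authors' deposited table there were 2 members higher in mir163, where the share over all genes tested was 0.67%, and 3 lower, where it was 0.327%. Together these 5 make 3.47% of the members tested, against 0.997% of all genes tested. A fold of at least 1.5 was found in 16 members (11.1%), against 6.87% of all genes tested. Of these, 9 were higher in mir163 (3.55% of all genes tested were) and 7 were lower (3.33% of all genes tested were). In 5 members the minimum was reached in 1 genotype only, which fixes their direction: DJC76, AT1G59725 and AT3G04980 in mir163, and ATHSP22.0 and HSP21 in WT. The median change of the members in log2(FPKM + 1), mir163 minus WT, was 0.06, and that of all genes tested was 0.0064. These shares describe the deposited values and are no test of the set. In bulk RNA, fewer cells of a type and less RNA per cell cannot be told apart.

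**Figure D1:**
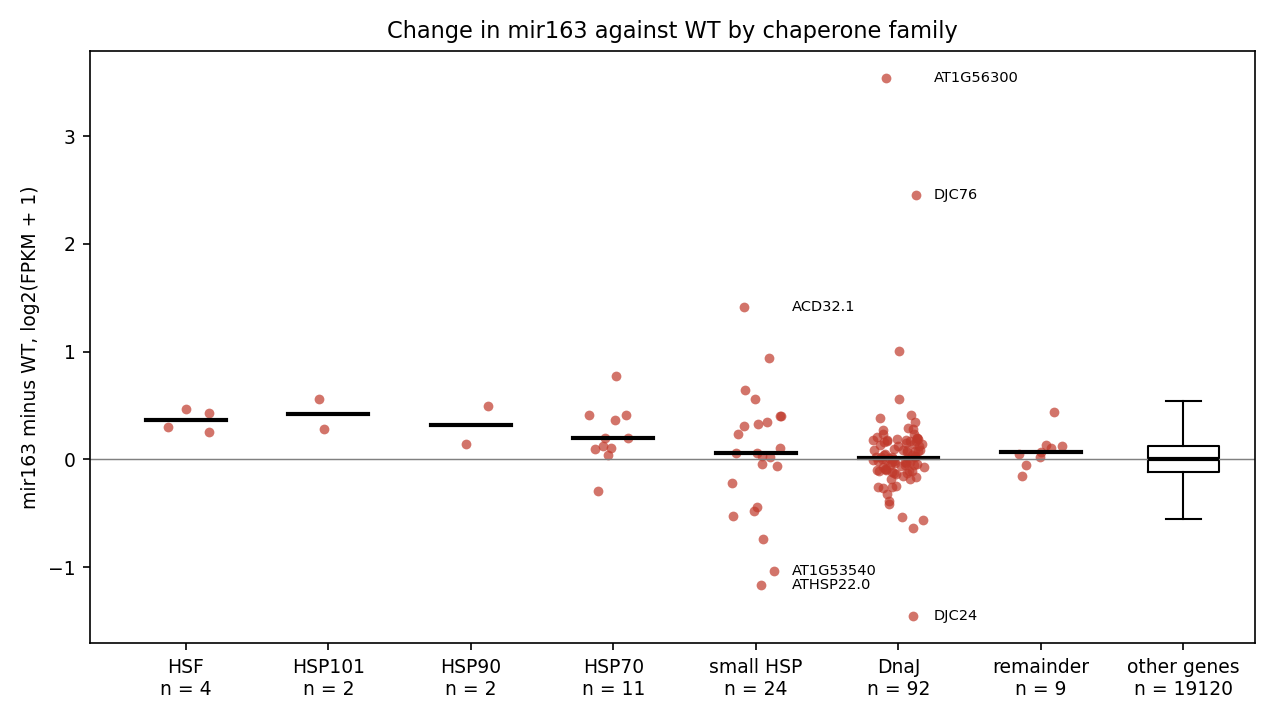
Difference between mir163 and WT in log2(FPKM + 1) for each member tested, by family, with 1 point per gene and a bar at the family median. The box on the right gives the quartiles of all other genes tested, with whiskers over the central 95% of them. The small heat shock proteins spread to both sides, and AT1G56300 and DJC76 stand above the other DnaJ members.

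All 4 heat shock factors had higher values in mir163, as had 51.3% of all genes tested, and 0 passed the threshold over all genes. HSFA2, a heat-induced activator that sustains the response, stood at an FPKM of 24.2 in mir163 and 19.5 in WT. HSFA1D, of the class that starts the response, stood at 8.48 in mir163 and 6.95 in WT. HSFA3, which acts below the drought and heat regulator DREB2A, stood at 3.50 in mir163 and 2.34 in WT. HSFB4, known as SCHIZORIZA and needed for asymmetric stem cell divisions in the root, stood at 11.9 in mir163 and 8.31 in WT. Their ratios ran from 1.22 to 1.49, and the p of HSFB4 in the authors' deposited table, 0.2207, was below those of the other 3. HSBP, described as a negative regulator that resembles heat shock factor binding proteins, stood at 148 in mir163 and 137 in WT.

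The HSP101 and HSP90 genes also had higher values in mir163 in 4 of 4 cases, as had 51.3% of all genes tested. HSP101, the cytosolic disaggregase needed for heat acclimation, stood at an FPKM of 44.2 in mir163 and 29.6 in WT, a ratio of 1.49. Its mitochondrial relative CLPB4 stood at 15.3 in mir163 and 12.5 in WT. HSP90.1, the heat-inducible cytosolic HSP90, stood at 202 in mir163 and 143 in WT, a ratio of 1.41, and Hsp89.1, an HSP90 of mitochondria, stood at 67.1 in mir163 and 60.6 in WT. The authors' deposited table gave HSP101 a p of 0.474 and HSP90.1 a p of 0.492, so neither difference passed.

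Of the 11 HSP70 genes, 10 (90.9%, against 51.3% of all genes tested) had a higher value in mir163 and 1 a lower one. Their median change was 0.19 in log2(FPKM + 1), and the family was not tested as a set. The largest difference was that of Hsp70-2, a cytosolic HSP70, at an FPKM of 45.0 in mir163 and 25.9 in WT. The ratio was 1.74, with a p of 0.0595 in the authors' deposited table and an adjusted p of 0.9996. HSC70-1, the cytosolic HSP70 that serves unstressed cells and the most abundant of all members, stood at 1788 in mir163 and 1742 in WT. Its change in log2(FPKM + 1) was 0.04, and 0.30 after quantile normalization. Hsp70-2 and HSC70-1 are neighbours on chromosome 5, 918 bases apart, and near relatives, so their values are uncertain where a read matches both. The heat-inducible HSP70 stood at 478 in mir163 and 359 in WT. BIP2, the HSP70 of the endoplasmic reticulum lumen, stood at 117 in mir163 and 87.7 in WT, and the mitochondrial MTHSC70-2 at 65.8 in mir163 and 50.7 in WT. A second mitochondrial HSP70, mtHsc70-1, stood at 101 in mir163 and 91.9 in WT, and Hsp70-15 at 137 in mir163 and 128 in WT. Hsp70b, a low and heat-inducible member, had the lower value, at 2.74 in mir163 and 3.58 in WT.

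**Figure D2:**
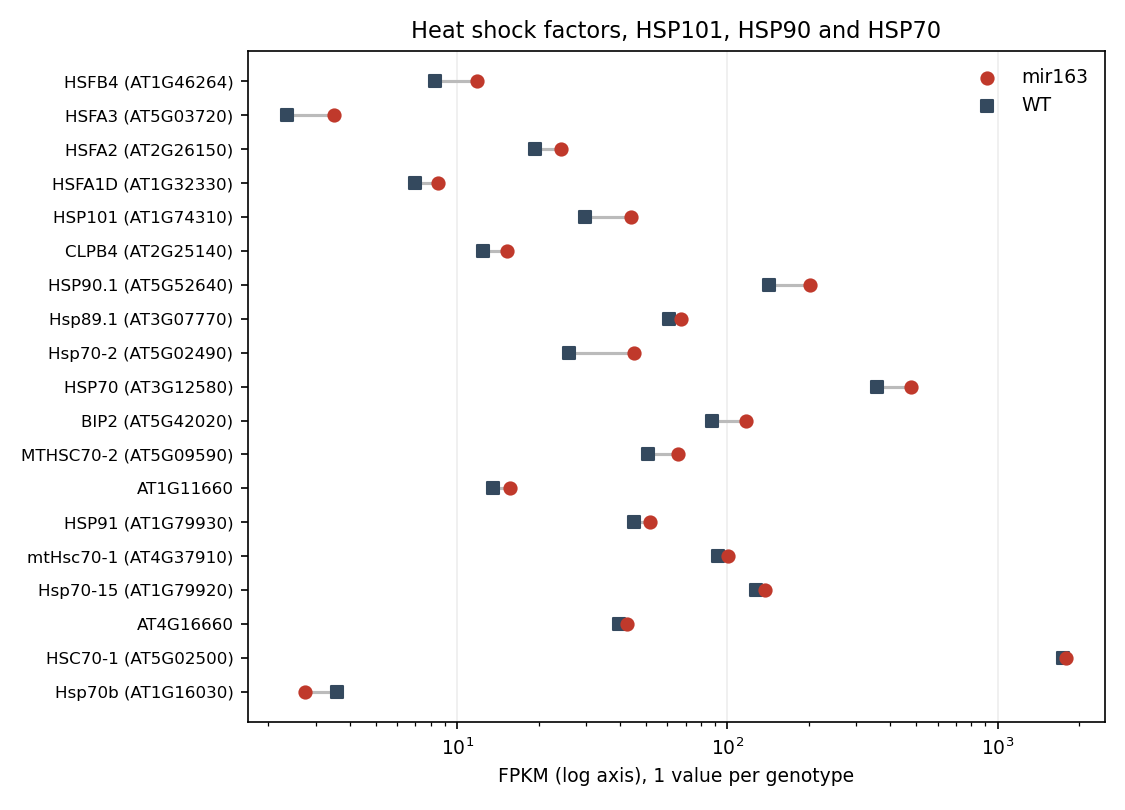
FPKM on a log axis of the heat shock factors, HSP101, HSP90 and HSP70 genes, with a circle for mir163 and a square for WT, 1 value per genotype. The circle lies to the right of the square in every gene except Hsp70b.

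Small heat shock proteins differed in both directions. Among the 24 tested, values were higher in mir163 in 15 (62.5%, against 51.3% of all genes tested) and lower in 9. A fold of at least 1.5 was found in 7 (29.2%), against 6.87% of all genes tested. Of these, 3 were higher (12.5%, against 3.55%) and 4 lower (16.7%, against 3.33%). The standard deviation of their changes in log2(FPKM + 1) was 0.59, against 0.52 for the DnaJ genes and 0.35 over all genes tested. SLI1 (AT3G10680) and AT1G76780 stayed under an FPKM of 1 in both genotypes and were not tested.

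The largest difference upward in mir163 was that of ACD32.1 (AT1G06460), an alpha-crystallin domain protein of peroxisomes. It stood at an FPKM of 95.2 in mir163 and 35.1 in WT. Its ratio was 2.71, with a p of 0.0128 in the authors' deposited table and an adjusted p of 0.9996. It overlaps a pair of annotated genes on the other strand. Of these AT1G06450 stood at 4.04 in mir163 and 3.58 in WT, and the antisense RNA AT1G04467 was not analysed here. The HSP20-like gene AT5G47600 stood at 5.11 in mir163 and 2.19 in WT, and AT2G29500 at 71.3 in mir163 and 45.3 in WT. In the authors' deposited table AT5G47600 had a p of 0.0865 and AT2G29500 one of 0.186. The members with the highest means were the HSP20-like genes AT4G21870, AT5G02480 and AT5G51440. AT4G21870 stood at 90.9 in mir163 and 84.2 in WT. AT5G02480 stood at 96.2 in mir163 and 77.6 in WT, and AT5G51440 at 102 in mir163 and 68.9 in WT. HSP17.6II, a class II protein of the cytosol, stood at 51.7 in mir163 and 38.8 in WT.

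Most of the small heat shock proteins with lower values were low in both genotypes. ATHSP22.0 (AT4G10250), a small heat shock protein of the endomembranes, stood at an FPKM of 0.453 in mir163 and 2.25 in WT, a ratio of 0.201. AT1G53540, described as an HSP20-like chaperone, stood at 10.2 in mir163 and 22.0 in WT, a ratio of 0.465. In the authors' deposited table ATHSP22.0 had a p of 0.0282 and AT1G53540 one of 0.0183, and the adjusted p of both was 0.9996. HSP21, which protects chloroplasts in heat, stood at 0.388 in mir163 and 1.32 in WT, with a p of 0.0587 in the authors' deposited table. AT1G52560 stood at 1.53 in mir163 and 2.63 in WT, and HSP18.2, a heat-induced protein, at 5.41 in mir163 and 7.68 in WT. ATHSP22.0 and HSP21 reached the minimum only in WT, so the filter fixed their direction. AT5G47590 is the neighbour of AT5G47600, 543 bases away, and differed in the other direction, at 7.22 in mir163 and 10.5 in WT.

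**Figure D3:**
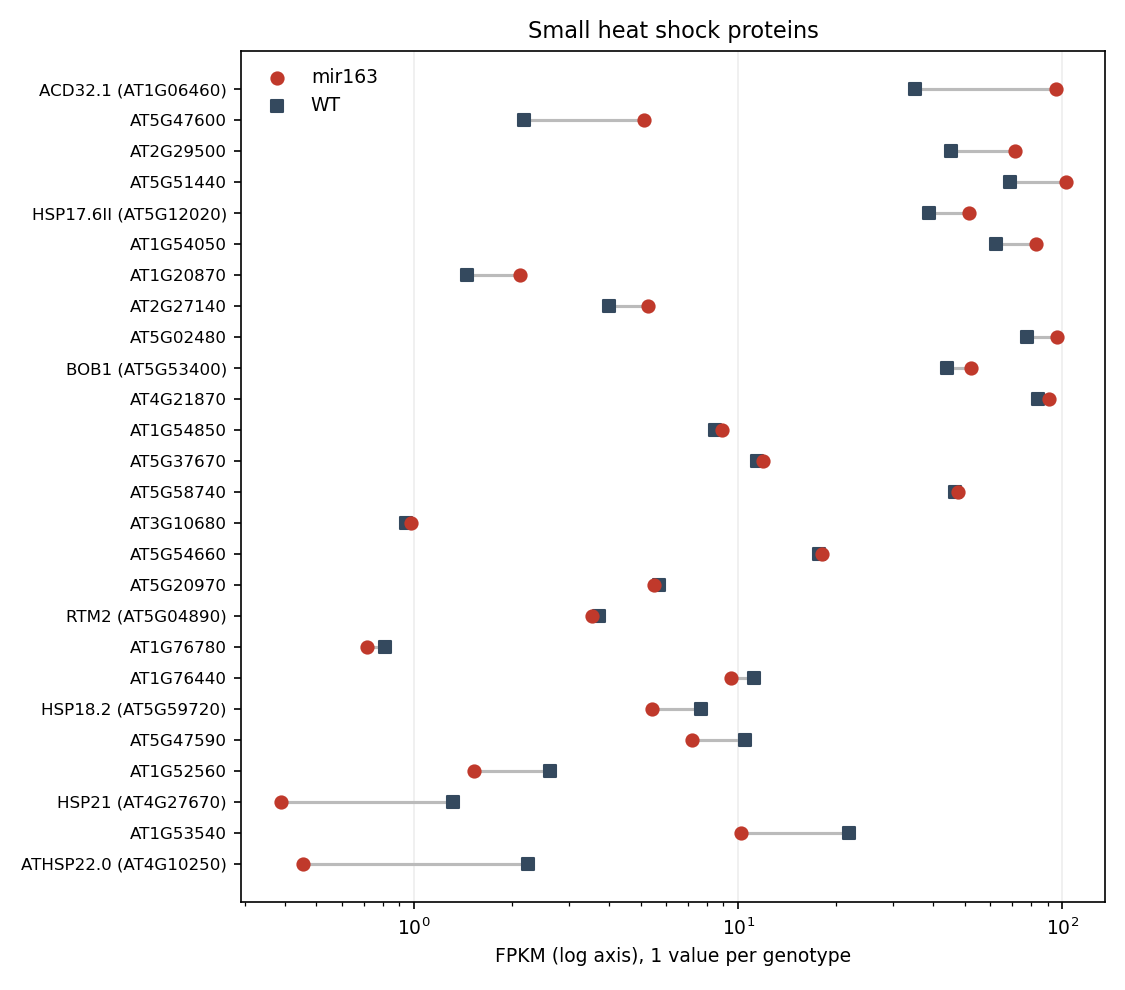
FPKM on a log axis of all 26 small heat shock proteins, ordered by their change, with a circle for mir163 and a square for WT, 1 value per genotype. Among the members with the circle to the left, AT1G53540 is the most abundant, at 10.2 in mir163 and 22.0 in WT.

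Among the 92 DnaJ genes the median change in log2(FPKM + 1) was 0.02. Within 1.25-fold of WT lay 76 of them (82.6%), near the 80.6% of all genes tested, and values were higher in mir163 in 50 and lower in 42. A fold of at least 1.5 was found in 8 (8.70%), against 6.87% of all genes tested, with 5 higher (5.43%, against 3.55%) and 3 lower (3.26%, against 3.33%). AT1G56300, described as a DnaJ-domain protein, stood at an FPKM of 44.9 in mir163 and 2.94 in WT, a ratio of 15.3. Its p of 0.00035 in the authors' deposited table was the lowest of all members, and its adjusted p was 0.421. DJC76 (AT5G23240) stood at 5.88 in mir163 and 0.258 in WT, a ratio of 22.8 with a p of 0.106 in the authors' deposited table. As DJC76 was under the minimum in WT it was tested only through its mir163 value. AT1G72416 stood at 17.1 in mir163 and 8.01 in WT (ratio 2.13), with a p of 0.0608 in the authors' deposited table. AT3G12170 stood at 5.19 in mir163 and 3.19 in WT, and AT1G59725 at 1.04 in mir163 and 0.562 in WT.

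AT1G56300 overlaps AT1G56290 on the other strand, which stood at 7.63 in mir163 and 7.18 in WT. DJC76 is overlapped on the other strand by the transcribed pseudogene AT5G23235 and the antisense RNA AT5G03585, which were not analysed here. The labels do not say whether the libraries kept the strand, so reads of such partners cannot be told apart. Of all members, 40 overlap a gene on the other strand.

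On the lower side, DJC24 (AT2G17880) stood at an FPKM of 16.4 in mir163 and 46.7 in WT. Its ratio was 0.351, with a p of 0.00905 in the authors' deposited table and an adjusted p of 0.9996. AT3G62190 stood at 23.6 in mir163 and 37.1 in WT, and AT1G72070 at 5.73 in mir163 and 8.93 in WT. J20 and J11, DnaJ proteins of the chloroplast stroma, had lower values under a 1.5-fold difference. J20, which takes misfolded enzymes of isoprenoid synthesis to HSP70, stood at 103 in mir163 and 150.1 in WT. J11 stood at 108 in mir163 and 144 in WT.

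J3, a cytosolic co-chaperone of HSP70 with the highest mean of the family, stood at an FPKM of 305 in mir163 and 268 in WT. Its relative J2 stood at 104 in mir163 and 91.2 in WT. The 5 proteins with only the cysteine-rich domain of DnaJ lay within 1.25-fold of WT. Among them AT3G47650 stood at 281 in mir163 and 273 in WT. LQY1, which acts in the repair of photosystem II, stood at 217 in mir163 and 247 in WT, and EDA3, also named PSA2, at 133 in mir163 and 135 in WT. NdhT and NdhU, of the chloroplast NADH dehydrogenase-like complex, stood at 43.8 and 80.8 in mir163, against 44.8 and 86.7 in WT. ARC6, a chloroplast division protein, stood at 22.4 in mir163 and 20.1 in WT. Of the 8 genes described as DNAJ heat shock family proteins, 7 had a higher value in mir163, with a median change of 0.22 in log2(FPKM + 1). Among the 39 described as chaperone DnaJ-domain superfamily proteins, 18 stood higher and 21 lower.

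**Figure D4:**
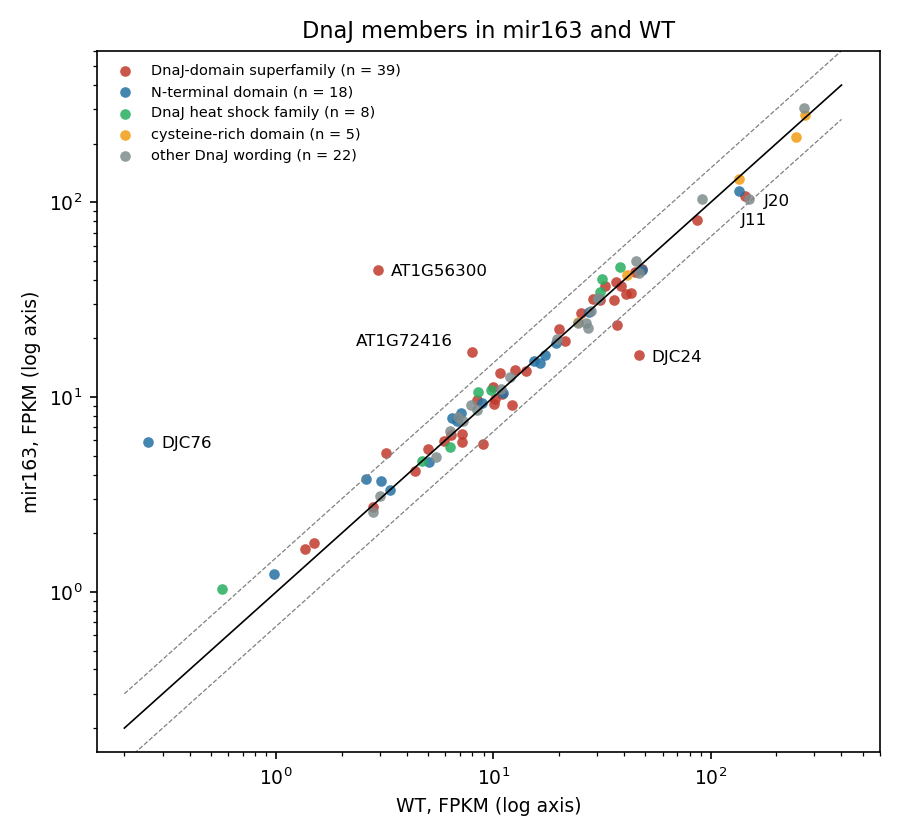
FPKM of the 92 DnaJ members, mir163 on the vertical and WT on the horizontal log axis, coloured by the wording of the description. The solid line marks equal values and the dashed lines a 1.5-fold difference. AT1G56300 and DJC76 lie far above the lines and DJC24 below them.

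The remaining 9 members stayed within a 1.5-fold difference. AT3G53990, a universal stress protein with chaperone activity in heat, stood at an FPKM of 62.3 in mir163 and 45.6 in WT. CPN10, the mitochondrial co-chaperonin, stood at 323 in mir163 and 311 in WT, and HSP60-3A, a chaperonin, at 21.0 in mir163 and 19.2 in WT. ATE1, described as stimulating the ATPase of DnaK and DnaJ, stood at 22.4 in mir163 and 20.4 in WT, and AT4G16100 at 6.63 in mir163 and 7.47 in WT. Summed over families, FPKM was 2844 in mir163 and 2586 in WT for HSP70. It was 788 in mir163 and 617 in WT for small heat shock proteins, and 2908 in mir163 and 2969 in WT for DnaJ. Together the members summed to 7571 in mir163 and 7068 in WT. This was 0.730% of all FPKM in mir163 and 0.622% in WT, where the sum over all genes was 1036970 in mir163 and 1136680 in WT.

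The evening element, a motif chosen with the results known, was present in 12 of the 146 windows (8.22%), against 4.02% of 27443 windows of all protein-coding genes in the annotation. A pair of copies was present in 3 members (2.05%), against 0.208% of all windows with at least 2 copies. In AT1G56300, DJC76 and ACD32.1 the first copy reads AAAATATCT and the second AGATATTTT, with 60, 33 and 14 bases between them. Among the other genes of the table with exactly 2 copies, 3 of 31 had that order. The 3 members with a pair had changes in log2(FPKM + 1) of 3.54, 2.45 and 1.41. DJC76 was tested only through its mir163 value, which fixes its direction. As the motif was chosen with these results known, the direction of none of the 3 is support. The 9 members with a single copy had a median of 0.08, with 5 higher and 4 lower, and ranged from -0.56 for AT1G72070 to 0.56 for AT5G51440. The 132 tested members without a copy had a median of 0.05.

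At least 1.5-fold higher in mir163 were 6 of 132 tested members without a copy and 0 of 9 with a single copy. So were 3 of 3 with a pair, and 3.55% of all genes tested. The motif was chosen with these values known, so the counts of members are no support. Outside the chaperones, the share at least 1.5-fold higher was larger with more copies, which was not tested. Of 36 other genes tested with at least 2 copies, 15 (41.7%) were at least 1.5-fold higher in mir163 and 1 was at least 1.5-fold lower. With a single copy it was 95 of 679 (13.99%), and without a copy 512 of 17799 (2.88%). Genes that reached the minimum FPKM in 1 genotype only, which fixes their direction, were not set apart in these counts. The sample details used here give the age in days and no hour of collection. The part of the collection hour in these counts was not tested. A match of letters is a description and not a binding site.

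**Figure D5:**
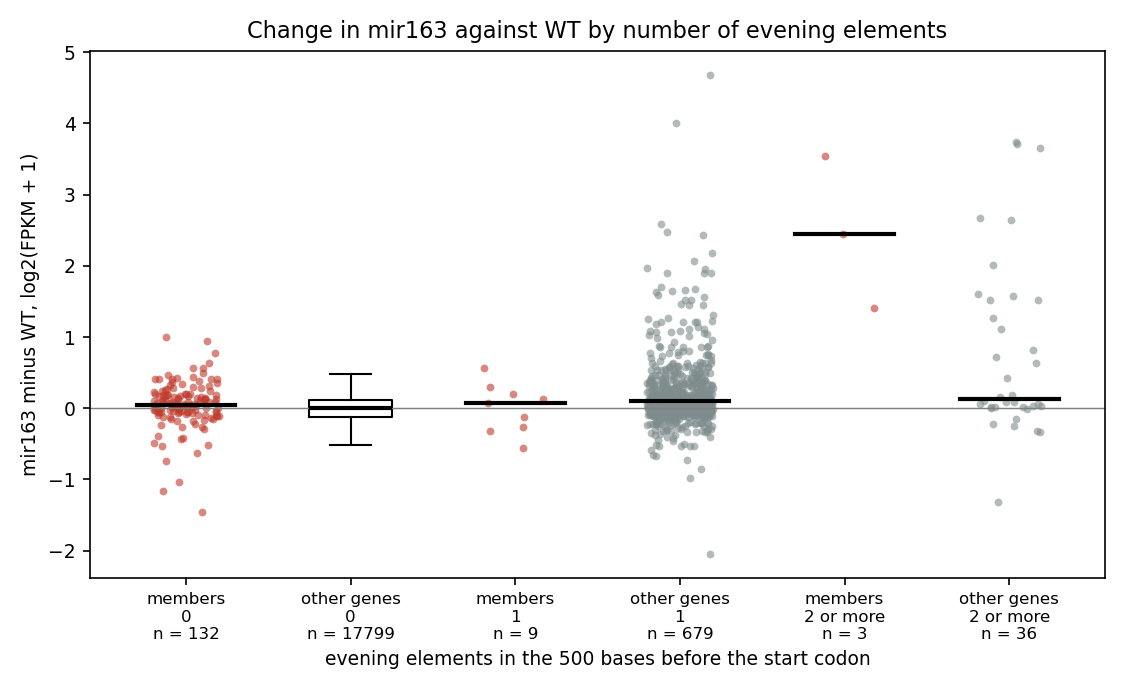
Difference between mir163 and WT in log2(FPKM + 1) by the number of evening elements in the 500 bases before the start codon, for the members and for all other genes tested. Points are genes, bars are medians, and the box gives the quartiles of the largest group, with whiskers over the central 95% of it. The 3 members with a pair of copies lie at 1.41 and above.

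The heat shock element was present in 16 of the 146 windows (10.96%), against 1.20% of all windows, in 4 of 11 HSP70 genes, 5 of 26 small heat shock proteins and 5 of 92 DnaJ genes. Of these 16 members, 12 (75%, against 51.3% of all genes tested) stood higher and 4 lower in mir163. Their median change was 0.16 in log2(FPKM + 1). Of the 128 tested members without it, 78 stood higher and 50 lower, with a median of 0.05. The difference between these groups was not tested. Outside the members, 136 of 252 tested genes with the element (54.0%) stood higher, with a median of 0.02. Without it 51.6% did, with a median of 0.008. At least 1.5-fold higher were 2.78% with the element and 3.37% without it. Those with the element include HSP90.1, HSP70, Hsp70-2 and HSFA2 with higher values and ATHSP22.0, AT1G53540 and HSP18.2 with lower ones. The shorter form with 2 units, GAANNTTC or TTCNNGAA, which every match of the longer form contains, was present in 75 members (51.4%), against 33.9% of all windows.

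The partners of these chaperones were followed in lists of other genes, 40 of which were tested. Of these, 31 (77.5%) stood higher and 9 lower in mir163, where 51.3% of all genes tested stood higher. Within 1.25-fold of WT lay 28 of them (70%), against 80.6% of all genes tested. Their median change was 0.17 in log2(FPKM + 1), and 0 passed over all genes. Among 14 co-chaperones of HSP90 and HSP70, 10 had a higher value. ROF1, an immunophilin that binds HSP90, stood at an FPKM of 141 in mir163 and 118 in WT, and P23-1, an HSP90 co-chaperone, at 135 in mir163 and 124 in WT. BAG6, which binds HSP70, had the largest difference, at 6.39 in mir163 and 3.36 in WT. Of 12 genes for folding in the endoplasmic reticulum, with the regulators BZIP60 and BZIP28 among them, 11 had a higher value. The lectin chaperone CNX1 stood at 226 in mir163 and 164 in WT, and BIP1 at 170 in mir163 and 126 in WT. BZIP60 had the lower value, at 33.3 in mir163 and 44.4 in WT. All 5 chaperonins had a higher value, with CPN20 at 811 in mir163 and 805 in WT, CPN60A at 436 in mir163 and 421 in WT, and the mitochondrial HSP60 at 125 in mir163 and 103 in WT. Of 4 further Clp proteins 3 had a higher value, with CLPC1 at 359 in mir163 and 340 in WT and CLPC2 at 83.2 in mir163 and 72.5 in WT.

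Heat response genes that encode no chaperone were mixed, with 2 of 5 higher in mir163. MBF1C, a coactivator of the heat response, stood at an FPKM of 317 in mir163 and 234 in WT, and GOLS1, which makes galactinol, at 45.9 in mir163 and 46.0 in WT. Among the 40 chaperone and heat response genes of these lists, DREB2C alone (2.5%, against 0.997% of all genes tested) had an unadjusted p under 0.05. It stood at 1.15 in mir163 and 0.161 in WT, with a p of 0.00965 in the authors' deposited table and an adjusted p of 0.9996, and was tested only through its mir163 value. Markers of green tissue and root were present in both genotypes. The green-tissue markers RBCS1A, LHCB1.3 and RCA had lower values in mir163 in 3 of 3 cases and summed to 31590 in mir163 and 37724 in WT. The root markers CASP1 and PRP3 stood at 50.2 and 84.6 in mir163, against 56.6 and 84.8 in WT. The flower marker PI stood at 1.08 in mir163 and 0.775 in WT, and was tested only through its mir163 value. The seed markers CRA1, OLEO1 and EM6 had higher values in mir163 in 3 of 3 cases and summed to 11.8 in mir163 and 2.93 in WT. OLEO1, at 1.53 in mir163 and 0.335 in WT, was tested only through its mir163 value, which fixes its direction. CRA1, a seed storage protein, stood at 7.71 in mir163 and 1.43 in WT, with a p of 0.00125 in the authors' deposited table and an adjusted p of 0.9996. Their part in the differences of the chaperone genes was not tested.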

How the data were processed

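The samples are 6 RNA-seq libraries of seedlings, 3 of mir163 and 3 of WT. Trizol was used for the RNA and an NEBNext Ultra RNA kit for the libraries, per the labels' protocols. Cufflinks, TopHat, bcl2fastq 2.17.1.14 and the build TAIR10 appear, without roles, in the submitters' processing notes. Per the file headers, the deposited values are FPKM with 1 column per genotype, a log2 fold change and a p-value, which is unadjusted. No label or header states how libraries were combined or which test was used. Depth is unknown, so no interval or detection limit is given. Recomputed from the FPKM columns, it differed from the deposited log2 fold change by at most 1.25e-05.

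The p-values were adjusted by Benjamini-Hochberg (threshold 0.05) over 19264 genes with an FPKM of at least 1 in a genotype; 691 were left out. Changes use a pseudocount of 1, which understates those of low genes. The members, families, lists and motifs were chosen with earlier results of these data known. Named are MIR163, members at an unadjusted p under 0.05, in each family the 4 largest changes and the 3 highest means, and in each list the genes at that p, the 2 highest means and the largest change. Others were added after their values were seen. Symbols, gene models and sequences come from RefSeq TAIR10.1, which matched all 146 members; coordinates are for that assembly only. Sites of miR163 were sought with edlib 1.3.9.post1. Python 3.11.15, numpy 2.4.6 and pandas 2.3.3 were used. On simulated data for 19264 genes in this comparison, 200 of 200 changed genes were recovered and 16 unchanged ones called, which checks the calculation only. Alternatives were filters, pseudocounts, scalings and a minimum fold.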

Additional observations from a re-analysis of the deposited data

How the results depend on the processing

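No paired analysis was possible because each genotype has a single value per gene, and for the same reason no library could be left out. Without a filter, as with a minimum FPKM of 5, 0 genes and 0 members passed the adjusted threshold. At an unadjusted p under 0.05 the counts of members stayed within 1.5 times, whatever the filter, the minimum fold or the exclusion of the 5 cysteine-rich DnaJ members. Family medians moved by less than 0.1 in 47 of 48 settings, the exception being the 4 heat shock factors, whose median of 0.36 was 0.23 at a pseudocount of 5. In the 40 other chaperone and heat response genes, DREB2C is under the minimum FPKM of 5, which leaves 0 genes higher at an unadjusted p under 0.05. The 34 named members kept their direction in 136 of 136 combinations of pseudocounts and scalings; a pseudocount cannot turn a sign, and median-ratio scaling divided by 1.005. Sizes moved by over 1.5 times in 6 of them. After quantile normalization HSC70-1 stood at 0.30 (0.04 as reported) and CPN10 at 0.08 (0.05). With pseudocounts of 0.1 and 5, DJC76 stood at 4.06 and 1.05 (2.45) and ATHSP22.0 at -2.09 and -0.41 (-1.16). With a pseudocount of 5, HSFA3 stood at 0.21 (0.43) and AT5G47600 at 0.49 (0.94). Without values per library, no difference here was set against replicate spread.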
